A study of Homo sapiens with 16 samples.

Results

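The 45 genes described here encode the machinery that copies DNA in human cells. They comprise the licensing factors that prepare replication origins, the proteins of the replication fork, enzymes that make deoxyribonucleotides and a few factors that act behind the fork. They were taken from a list of gene names and looked up by symbol, and all 45 were found in both deposited expression tables, among 22892 genes in the HiSeq table and 25606 in the NextSeq table. The cells are HT1080, a human fibrosarcoma line, in which an XIST cDNA was placed into a single recombination site on chromosome arm 1p, 8p or 12q. XIST is the long non-coding RNA that coats and silences the inactive X chromosome, and here it is held off by a Tet repressor until doxycycline (DOX) is added. The study asks how the integration site shapes silencing by XIST. The HiSeq table holds 1 library of the 8p XIST clone with No DOX, 2 of the 8p XIST clone after 5 days of DOX, and 1 each, also after 5 days of DOX, of a 1p XIST clone, a 1p clone with an empty vector and a 12q XIST clone. The NextSeq table holds the 1p and 12q XIST clones, each with 1 No DOX and 1 DOX library of 5 days. Every line carries the Tet repressor, and the 12q line came from another repressor-carrying subclone than the 1p and 8p lines, so that site, clone and founder cannot be told apart. Per the study's methods the 8p DOX libraries may come from separate clones, and the 1p No DOX and DOX libraries carry different sample names. Where a No DOX and a DOX library are of different clones, DOX and clone cannot be told apart. The 12q libraries of the HiSeq and NextSeq tables also carry different sample names. The study made several 12q clones, so these libraries may be of different clones as well.

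Replication starts when the origin recognition complex and its partners load the MCM helicase onto DNA before S phase. Activating factors then turn the helicase on, and the sliding clamp, primase and polymerases copy both strands while nucleotide enzymes supply the building blocks. Many of these genes are transcribed at the start of S phase under the E2F transcription factors and are high in dividing cells, as in most tumour lines.

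The values are FPKM (fragments scaled to transcript length and to the number of mapped fragments), as deposited. The tables were compared only within themselves, the depth of the libraries is unknown, and all 45 genes passed the filter on low values (a mean of 1 FPKM or more over the table) in both. Markers of mesenchymal cells were at 1 FPKM or more for 8 of 8 genes in every library, against 0 to 1 of 5 blood and 0 of 4 neural markers. Of 6 epithelial markers, 0 reached 1 FPKM in 9 of the libraries and 2 did in the 12q DOX library of the NextSeq table, where their summed level was 5.44 FPKM, against at most 0.163 FPKM elsewhere. In bulk libraries, fewer cells in S phase and less RNA of a gene per cell cannot be told apart.

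In the 8p clone, DOX was compared with No DOX, which takes in both the induction of XIST and the drug itself. No vector clone with No DOX is among the libraries, so XIST and the drug cannot be told apart. The paper reports that DOX raised H3K27ac across the genome and proposes a broad effect of the antibiotic. Replication genes fell along the whole pathway. Of the 45 genes, 39 fell and 0 rose (limma on log2(FPKM + 1), adjusted p from 0.0131 to 0.0423 for those called), while 19.8% of the 11357 genes tested fell and 11.3% rose. With every library rescaled to one median, 2080 genes fell and 2169 rose, against 2251 and 1286 as deposited, and 39 of the 45 still fell. An unadjusted p below 0.05 was found for 39 of the 45 genes and for 47.3% of all genes. By size, 39 of the 45 were lower by at least 20% in both DOX libraries (background 20.5%) and 0 were higher by at least 25% in both (13%). The median log2 ratio was -0.80 over the 45 genes and -0.06 over all genes tested, or -0.09 over the 5163 genes whose mean was 10 FPKM or more. In percent, the median change was -46.5%, and 34 of the 45 genes lay among the lowest 5% of all genes tested. The DOX libraries repeated each other closely, with medians of -0.79 and -0.85 against No DOX, and 0 of the 45 genes were 20% lower or 25% higher in the other DOX library, where 2.65% and 2.47% of all genes were. The No DOX condition had only 1 library, which the test takes to vary like the DOX pair. The p-values thus rest on the spread within that pair, which the paper describes as a biological duplicate, together with information shared across genes. The spread of the No DOX condition was not measured. Without the filter on low values, 0 of the 45 genes and 15 of 18208 genes passed limma, although 38 of the 45, and 30.6% of all genes, had an unadjusted p below 0.05.

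The licensing genes fell for 11 of 14 members, with a median log2 ratio of -0.89. CDC6, which recruits the helicase to origins, was at 28.6 FPKM with No DOX and at 10.99 and 9.93 FPKM with DOX, and both DOX values lay far below the No DOX value (log2 difference -1.37, SE 0.0913, limma adjusted p = 0.0152). Its partner CDT1 went from 29.1 FPKM to 15.3 and 14.8 FPKM. The 6 MCM2 to MCM7 subunits, which form the ring of the helicase, all fell. Their log2 ratios ran from -0.69 for MCM7, which had the highest level of them at 101 FPKM with No DOX, to -1.15 for MCM3 and MCM4. MCM4 was at 57.2 FPKM with No DOX and at 25.7 and 24.7 FPKM with DOX. The subunits of the origin recognition complex differed among themselves. ORC6 went from 16.04 FPKM to 6.23 and 5.93 FPKM, and ORC1, the largest subunit, from 10.998 to 4.81 and 4.09 FPKM. ORC5 fell less, with a log2 ratio of -0.47. In contrast, ORC2 was at 16.4 FPKM with No DOX and at 16.1 and 14.99 FPKM with DOX, and neither ORC2, ORC3 nor ORC4 passed the test. ORC3 was at 15.5 FPKM against 15.7 and 14.7 FPKM, and ORC4 at 11.7 against 11.8 and 12.6 FPKM. The highest of the 6 ORC subunits was thus 1.49-fold above the lowest with No DOX and 3.34-fold and 3.67-fold above it with DOX.

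The factors that activate the helicase fell for 6 of 6 members, with a median log2 ratio of -1.13. MCM10, which helps to start the helicase, was at 13.4 FPKM with No DOX and at 4.27 and 3.95 FPKM with DOX, the largest drop of the 45 genes in percent (-69.3%; log2 difference -1.49, SE 0.0828, limma adjusted p = 0.0148). CDC45, a part of the active helicase, went from 17.4 FPKM to 8.05 and 7.52 FPKM. The GINS complex of 4 subunits completes that helicase. GINS2 was at 34.7 FPKM and then at 12.3 and 13.3 FPKM, GINS1 at 17.1 and then at 7.09 and 7.18 FPKM. GINS3 went from 5.25 to 2.06 and 1.86 FPKM. MCM8, a helicase of recombination that is not part of the MCM ring, fell less, from 15.9 FPKM to 11.6 and 9.63 FPKM.

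At the fork, the clamp and the 5 subunits of its loader fell for 6 of 6 members. PCNA, the sliding clamp, was among the most abundant members at 186 FPKM with No DOX, and was at 99.4 and 95.8 FPKM with DOX. RFC2 went from 46.03 to 29.2 and 25.01 FPKM, and RFC4 from 26.7 to 20.01 and 19.04 FPKM. The loader subunits ranged from a log2 ratio of -0.33 for RFC1, the large subunit, to -1.07 for RFC3, which went from 29.0 FPKM to 12.7 and 13.9 FPKM. Among the polymerases and primase, 6 of 9 members fell, and their median log2 ratio was -0.69. PRIM1, the catalytic subunit of primase, was at 40.9 FPKM with No DOX and at 23.2 and 23.1 FPKM with DOX. POLA1, the catalytic subunit of polymerase alpha, went from 9.50 to 5.38 and 4.78 FPKM, and POLE, that of the leading-strand polymerase epsilon, from 14.1 to 9.04 and 8.30 FPKM. Their accessory subunits POLA2, at 15.5 FPKM and then 9.36 and 8.40 FPKM, and POLE2, at 3.20 FPKM and then 1.55 and 1.54 FPKM, fell as well. PRIM2, the large subunit of primase, at 16.4 FPKM against 14.4 and 12.5 FPKM, did not pass the test, nor did POLD1 and POLD2. POLD1, the catalytic subunit of the lagging-strand polymerase delta, was at 19.6 FPKM with No DOX and at 17.4 and 16.1 FPKM with DOX. Its partner POLD2 was at 59.98 FPKM against 57.96 and 60.5 FPKM, whereas POLD3, another subunit of the same enzyme, fell from 7.15 to 3.98 and 4.09 FPKM. The span between POLD2 and POLD3 widened from 8.39-fold to 14.6-fold and 14.8-fold.

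FEN1, the nuclease that trims Okazaki fragments, was at 81.8 FPKM with No DOX and at 31.3 and 29.4 FPKM with DOX, while LIG1, the ligase that seals them, went from 19.2 FPKM to 11.9 and 11.6 FPKM. All 4 nucleotide genes fell. RRM2, the S phase subunit of ribonucleotide reductase, went from 54.4 FPKM to 24.1 and 22.3 FPKM, and its partner RRM1 from 71.6 to 49.0 and 43.5 FPKM, so that RRM1 was 1.31-fold above RRM2 with No DOX and 2.03-fold and 1.95-fold above it with DOX. TYMS, which makes thymidylate and was the most abundant member at 188 FPKM, went to 124 and 115 FPKM, and TK1, which salvages thymidine, from 76.9 to 47.7 and 47.6 FPKM. CHAF1A, the large subunit of the CAF-1 complex that places histones on new DNA, was at 20.1 FPKM with No DOX and at 6.76 and 6.72 FPKM with DOX, and had the smallest adjusted p of the list (log2 difference -1.45, SE 0.0720, limma adjusted p = 0.0131). CHAF1B, the other CAF-1 subunit, went from 17.8 to 7.60 and 7.36 FPKM. UNG, which removes uracil from DNA, was at 20.1 FPKM and then at 10.2 and 8.93 FPKM. Across the 45 genes, the log2 ratio and the No DOX level had a Pearson correlation of -0.08 and a Spearman correlation of -0.12, a description of points that share the same 3 libraries. PCNA, RRM2 and PRIM2 have near-identical copies elsewhere in the genome, so their levels are uncertain where reads were split. TYMS overlaps ENOSF1 on the other strand, so its level is uncertain if the strand of the reads was not used for the FPKM.

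**Figure D1:**
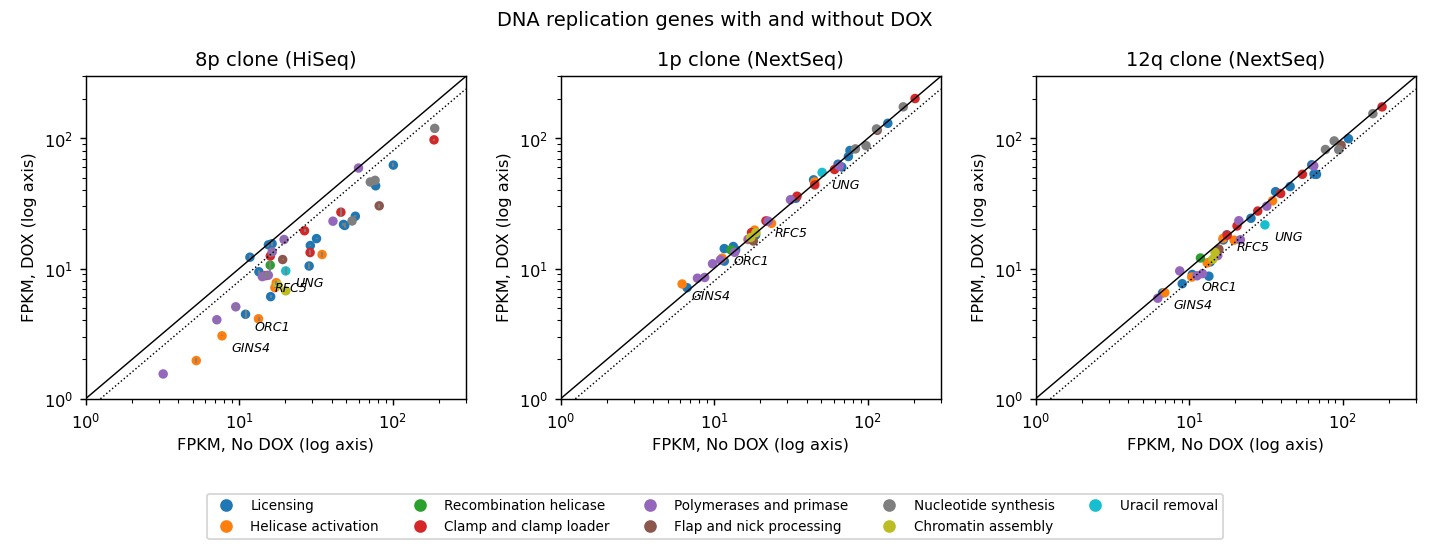
FPKM of the 45 genes with DOX (vertical axis) against No DOX (horizontal axis), both log axes, in the 8p clone (HiSeq; points are the mean of 2 DOX libraries and thin bars join them) and in the 1p and 12q clones (NextSeq, 1 library per condition). Colours give the role, the solid line is equality and the dotted line a reduction of 20%; 39 genes lie under the dotted line for 8p, 0 for 1p and 6 for 12q.

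Genes of the pathway outside the list moved the same way. Of 38 other replication genes, 31 fell and 1 rose, with a median log2 ratio of -0.58. GMNN, the inhibitor of CDT1, was at 43.1 FPKM with No DOX and at 15.95 and 17.4 FPKM with DOX, and CLSPN, a fork checkpoint protein, went from 13.4 to 4.72 and 4.88 FPKM. The gene that rose was POLD4, the small subunit of polymerase delta, from 12.4 to 22.5 and 23.2 FPKM. Among 21 tested regulators of S phase entry, 12 fell and 4 rose (median -0.33). CCNE2, a cyclin of the G1/S transition, was at 6.97 FPKM with No DOX and at 1.23 and 1.55 FPKM with DOX, and E2F1, an activator of S phase genes, went from 11.3 to 4.15 and 3.91 FPKM. The 4 that rose were MYC, E2F5, RBL2 and CDKN1A, an inhibitor of cyclin-dependent kinases that went from 101 to 136 and 134 FPKM. Mitosis genes fell for 9 of 12 members with a median log2 ratio of -0.43, a smaller shift than that of the replication genes. Of 7 housekeeping genes tested, 1 fell (TBP), and their median was -0.12. The part of the S phase regulators and mitosis genes in the result was not tested.

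Promoter sequences (RefSeq, GRCh38.p14; 250 bases before to 50 bases after the transcript start) were matched for 41 of the 45 genes. GINS4, MCM4, MCM5 and POLD3 had no entry. They were searched on both strands for the E2F-type letters TTTCCCGC, TTTCGCGC, TTTGCCGC and TTTGGCGC, a choice made after the expression values were seen. At least 1 match was found in 19 of the 41 promoters, or 46.3%, against 3.33% of all 27305 promoters and 5.70% of the 7935 promoters of genes tested in the HiSeq table. Among the other replication genes, of which most also fell in the 8p clone, 4 of 29 promoters, or 13.8%, held one. The letters CCAAT, in either direction, were in 58.5% of the 41 and in 35.7% of all promoters. A few stretches upstream of the start are shown, because they span the range of the response, with the E2F-type matches in capitals.
MCM6: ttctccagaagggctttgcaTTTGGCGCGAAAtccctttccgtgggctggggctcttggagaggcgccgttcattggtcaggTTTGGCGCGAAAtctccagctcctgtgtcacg
GINS2: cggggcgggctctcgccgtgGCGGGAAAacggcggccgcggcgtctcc
PCNA: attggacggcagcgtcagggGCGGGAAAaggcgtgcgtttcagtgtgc
RFC3: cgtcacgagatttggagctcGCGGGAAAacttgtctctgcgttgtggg
CDT1: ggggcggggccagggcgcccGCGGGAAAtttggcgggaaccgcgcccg
ORC3: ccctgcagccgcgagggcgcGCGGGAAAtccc
MCM10: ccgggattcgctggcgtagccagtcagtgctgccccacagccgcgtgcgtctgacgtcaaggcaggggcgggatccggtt
The MCM6 stretch (chr2:135876502-135876615, minus strand) holds 4 matches that overlap in pairs. The stretches of GINS2 (chr16:85688958-85689005, minus strand), PCNA (chr20:5126654-5126701, minus strand), RFC3 (chr13:33818074-33818121, plus strand) and CDT1 (chr16:88803734-88803781, plus strand) hold 1 match each. ORC3 (chr6:87590103-87590134, plus strand) also holds 1, although it did not pass the test in the 8p clone, and MCM10 (chr10:13161478-13161557, plus strand), with the largest drop, holds none in its 300 bases. The median log2 ratio in the 8p clone was -0.87 for the 19 genes with a match and -0.72 for the 22 without, with ranges of -1.37 to -0.03 and -1.49 to 0.05, so both groups overlapped almost entirely. A match describes letters and not binding.

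Set beside the other HiSeq libraries, the 8p clone with No DOX was at the upper end and with DOX at the lower end. The No DOX library was the highest of the 6 libraries for 31 of the 45 genes, against 35.1% of all genes tested. Both 8p DOX libraries lay below all 4 others for 31 of the 45, against 7.97% of all genes. Summed over the 45 genes, the FPKM were 1673 with No DOX, 973 and 926 in the 8p DOX libraries, 1386 in the 1p XIST clone, 984 in the 1p vector clone and 1313 in the 12q XIST clone. By these sums the 1p vector clone, which has no XIST transgene, was near the 8p DOX libraries. It was the lowest of the 6 libraries for 42.6% of all genes tested and for 8 of the 45. The 8p DOX libraries held the lowest place for 4 and 30 of the 45, which limits what this count can show. Against the 1p XIST clone, the median log2 ratio of the vector clone was -0.49 over the 45 genes and -0.09 over all genes. Whether its low sum is particular to the list was not tested. The mean of the 8p DOX libraries was lower by at least 20% than the 1p XIST clone for 31 genes (background 17.3% of all genes) and higher by at least 25% for 2, ORC2 and ORC3 (44.1%). Its median log2 ratio was -0.60 over the 45 genes and 0.20 over all genes. Against the 12q XIST clone it was lower for 29 genes (18.3%) and higher for 0 (29%), with medians of -0.48 and 0.08. Against the vector clone it was lower for 18 genes (11.4%) and higher for 4 (53.3%), namely PCNA, TYMS, ORC5 and ORC3, with medians of -0.19 and 0.31. PCNA was at 119 FPKM in the 1p XIST clone, at 124 FPKM in the 12q XIST clone and at 60.3 FPKM in the vector clone, the lowest of the 6 libraries. MCM2, in turn, was at 21.2 to 22.5 FPKM in the 8p DOX libraries and at 47.8 to 67.9 FPKM in the other 4. POLE2 had its highest value, 6.78 FPKM, in the 12q XIST clone and was at 3.20 FPKM in the 8p clone with No DOX.

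**Figure D2:**
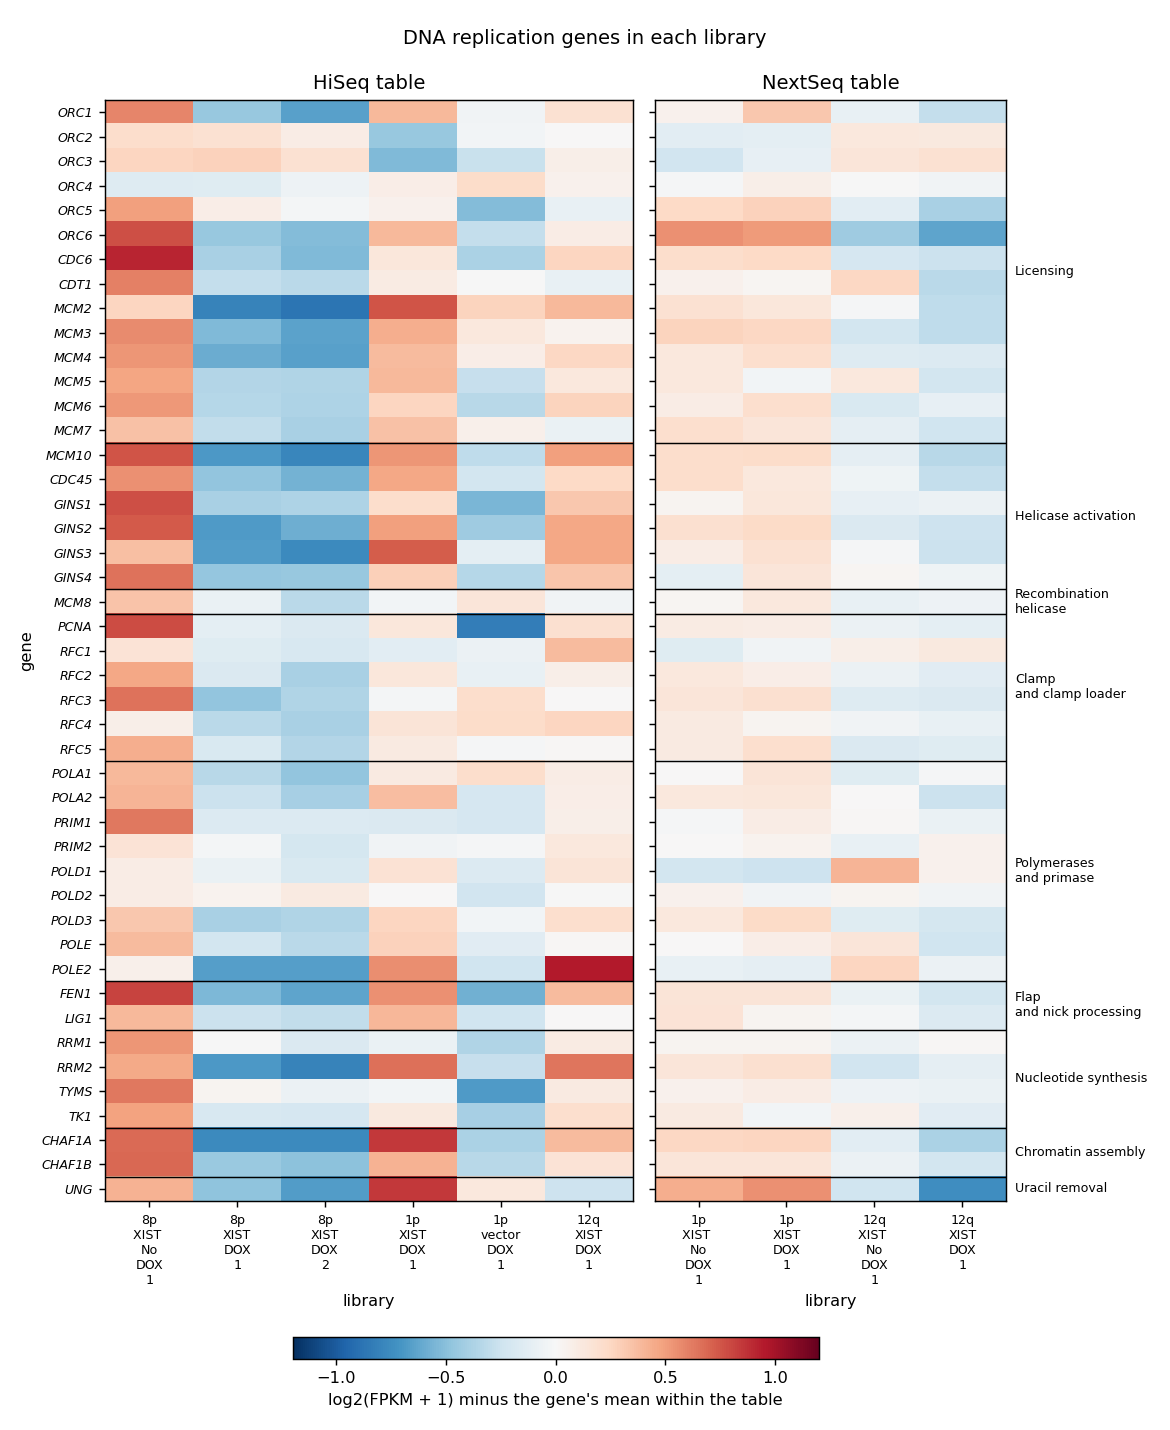
Level of each of the 45 genes (rows, grouped by role) in each library (columns) as log2(FPKM + 1) minus the mean of the gene within its table, with red above and blue below that mean. In the HiSeq table the No DOX library of the 8p clone is red and the 8p DOX libraries are blue for most genes, ORC2, ORC3, ORC4 and POLD2 apart, and in the NextSeq table the differences are smaller and follow the clone.

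When the 3 libraries of the 8p clone were tested against the 3 of the other clones, 0 of the 45 genes passed limma and 4 had an unadjusted p below 0.05 (MCM2, ORC3, RFC4 and POLE2), where 5.17% of all genes passed (1.07% lower and 4.1% higher in the 8p clone) and 29% had such an unadjusted p. The 8p side mixed No DOX and DOX libraries, while the other side held DOX libraries only. The difference between No DOX and DOX thus added to the spread, and a gene could fail to pass for that reason alone. The median log2 difference of the 45 genes was -0.13 and that of all genes 0.22, a shift of all genes between these libraries. With every library rescaled to one median, 255 of all genes were lower and 192 higher in the 8p clone, against 121 and 466 as deposited, and still 0 of the 45 passed, with 8 at an unadjusted p below 0.05, where 20.5% of all genes had one. When the DOX libraries of the 8p clone alone were set against the 4 others, 0 of the 45 and 2 of all genes passed, and 21 of the 45 had an unadjusted p below 0.05, as did 12.7% of all genes.

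The 1p clones allow a comparison between XIST and empty vector, both with DOX and with 1 library each, so no test was made. The members were lower in the vector clone than in the XIST clone, with a median log2 ratio of -0.49 against -0.09 for all genes tested. Of the 45, 28 were lower by at least 20%, where 33.8% of all genes were, and 1 was higher by at least 25%, ORC2, where 20.4% were. CHAF1A differed most, at 22.7 FPKM in the XIST clone and at 9.12 FPKM in the vector clone. FEN1 was at 68.0 and 30.7 FPKM, and GINS3 at 7.03 and 3.48 FPKM. ORC2 went the other way, with 9.996 FPKM in the XIST clone and 13.8 FPKM in the vector clone, as did ORC3 with 8.55 and 10.5 FPKM and RFC3 with 17.7 and 21.2 FPKM. The housekeeping genes had a median of -0.35 in this comparison and mitosis genes one of -0.13. Across the 45 genes, these log2 ratios had a Pearson correlation of 0.69 and a Spearman correlation of 0.67 with those of DOX over No DOX in the 8p clone, against 0.25 and 0.42 over all 11357 genes, and no library is shared between them. Of the 45 genes, 44 were lower in the 8p comparison, 36 in the 1p comparison and 36 in both. The count in both was nearly fixed by the single counts and gives no measure of likeness. Of all 11357 genes tested, 6486 and 6600 were lower in the single comparisons, and the share lower in both was not computed. The genes are not independent of each other, and these values describe the libraries only.

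**Figure D3:**
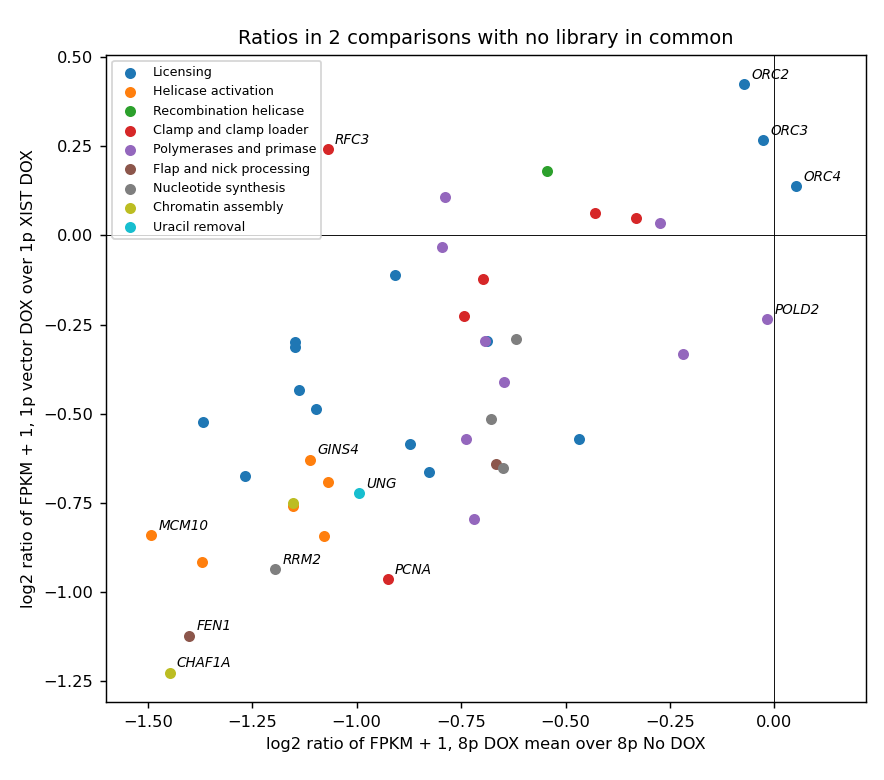
Log2 ratio of FPKM + 1 for the 45 genes in the 8p clone, DOX mean over No DOX (horizontal axis), and between the 1p clones with DOX, vector over XIST (vertical axis), coloured by role. CHAF1A, FEN1 and MCM10 are low on both axes, ORC2, ORC3 and ORC4 are high on both, and RFC3 is low only in the 8p clone.

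In the NextSeq table, the question was whether the replication genes changed with DOX in the 1p and 12q clones. With the clone as a covariate, 0 of the 45 genes passed limma and 2 had an unadjusted p below 0.05 (MCM5 and TK1), where 0.00877% of all genes passed and 6.55% had such an unadjusted p. In the 1p clone the median log2 ratio was 0.02, and 0 of the 45 genes were lower by 20% or higher by 25%, where 4.97% and 3.91% of all genes were. The percent change ran from -11.1% for MCM5, at 67.9 FPKM with No DOX and 60.4 FPKM with DOX, to 23.04% for GINS4, which went from 6.18 to 7.61 FPKM. Next to these, TK1 and LIG1 were the lowest and ORC1 and POLA1 the highest ratios. In the 12q clone the median was -0.08 against -0.02 for all genes, and 6 of the 45 genes were lower by at least 20% (14.3% of all genes) while 0 were higher by at least 25% (4.85%). These 6 were CDT1, UNG, POLE, POLD1, POLE2 and MCM5. CDT1 was at 13.5 FPKM with No DOX and at 8.73 FPKM with DOX, and POLD1 at 21.6 and 16.7 FPKM. PCNA stayed at 181 and 175 FPKM, and MCM10 was at 13.1 and 11.1 FPKM. The highest ratios in 12q were those of PRIM2, POLA1 and RRM2. RRM2 was higher with DOX in both clones, at 114 and 118 FPKM in 1p and at 88.2 and 95.8 FPKM in 12q. With 1 library per condition, these ratios have no replicate check. Epithelial markers differed within the same 12q pair, while in the HiSeq 12q DOX library they summed to only 0.0971 FPKM. EPCAM was at 2.38 FPKM with DOX, CDH1 at 1.38, KRT19 at 0.964 and ESRP1 at 0.719 FPKM, KRT5 and KRT14 were at 0, and all 6 were at 0 with No DOX. Their part in the 12q values was not tested.

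The same 4 libraries also compare the clones with each other. With DOX as a covariate, 19 of the 45 genes were lower in the 12q than in the 1p clone and 2 were higher (limma), where 15% and 17.9% of all genes were, an unadjusted p below 0.05 was found for 28 of the 45 and for 47% of all genes, and the median log2 difference was -0.20 against 0.02 for all genes. ORC6 was at 18.6 and 18.1 FPKM in the 1p clone and at 9.02 and 7.65 FPKM in the 12q clone, without overlap (log2 difference -1.06, SE 0.0821, adjusted p = 0.00415). UNG had a log2 difference of -0.99. MCM3 was at 64.2 and 63.4 FPKM in 1p and at 45.6 and 42.7 FPKM in 12q. The genes that were higher in 12q were POLD1, at 13.6 and 13.3 FPKM in 1p and at 21.6 and 16.7 FPKM in 12q, and ORC3, at 13.3 and 14.8 FPKM and at 17.6 and 18.2 FPKM. Mitosis genes were not lower in the 12q clone, with 0 of 12 lower and 1 higher and a median of 0.14. Without the filter on low values, 6 of the 45 genes passed, all lower in 12q (ORC6, CDC6, MCM3, MCM7, GINS2 and RRM2). Over both directions 10.7% of 18414 genes passed, a share near that of the members. Of these genes, 815 were lower and 1156 higher in 12q. The 12q DOX library with the epithelial markers enters this comparison, and with both terms no fit could be made without it.

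Some members lie on the chromosome arm that carries an integration, and these were set against the rest of the list. Positions are those of the HiSeq table on hg18, as spans of the whole gene with its exons and introns, and the distance runs between the middles of the gene and of the gene that holds the transgene in an intron. GINS4 (chr8:41505882-41521722) lies 34.9 Mb from AGPAT5, the host gene on 8p. It went from 7.73 FPKM to 3.02 and 3.06 FPKM in the 8p clone, a change of -60.7%. Its log2 ratio was 0.32 below the median of the other 44 members, and 12 of them had a lower ratio. GINS1 and GINS2, on other chromosomes, had log2 ratios of -1.15 and -1.37 beside the -1.11 of GINS4. Of 130 tested genes within 40 Mb of AGPAT5, 7 had a lower ratio than GINS4, and the median change of the 130 was -21.4%. MCM4 lies on the other arm of chromosome 8, 42.5 Mb away, and its ratio of -1.15 was close to that of MCM3 on chromosome 6.

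UNG (chr12:108019782-108033181) lies 0.638 Mb from FAM222A (C12orf34 in the table), the host gene of the 12q integration. In the 12q clone it was at 31.2 FPKM with No DOX and at 21.7 FPKM with DOX, a change of -30.5%, and only CDT1 among the other 44 members had a lower ratio. The log2 ratio of UNG was 0.43 below their median. In the 1p clone UNG was at 50.6 and 54.9 FPKM, and in the 8p clone it fell with the rest of the list, from 20.1 to 10.2 and 8.93 FPKM. It was already lower in the 12q than in the 1p clone with No DOX, by a change of -38.3%, and with DOX the change was -60.5%. In the HiSeq table it was at 27.5 FPKM in the 1p XIST clone and at 12.2 FPKM in the 12q XIST clone, a change of -55.4%. The HiSeq 12q library, which may be of another 12q clone, had a summed epithelial level of 0.0971 FPKM, against the 5.44 FPKM of the NextSeq 12q DOX library. In both comparisons of 12q with 1p under DOX, UNG had the lowest ratio of the 45 genes. Among the 97 tested genes within 10 Mb of FAM222A, the median change with DOX was -6.31%, and 13 had a lower ratio than UNG.

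RFC5 (chr12:116938889-116954425), which is 8.28 Mb from FAM222A on the far side from UNG, did not share this pattern. It was at 17.7 FPKM with No DOX and at 18.04 FPKM with DOX in the 12q clone, and 36 of the other 44 members had a lower ratio. The log2 ratio was 0.11 above their median. In the 8p clone RFC5 went from 14.9 to 9.38 and 8.28 FPKM. POLE, 23.1 Mb from FAM222A, was at 12.2 FPKM with No DOX and at 9.14 FPKM with DOX in the 12q clone (-25.3%), the third lowest ratio of the list. PRIM1, 53.2 Mb away on the same arm, was at 32.1 and 30.1 FPKM. On 1p, ORC1 lies 13.1 Mb from MACF1, the host gene there, and was at 11.6 FPKM with No DOX and at 14.2 FPKM with DOX in the 1p clone (22.3%). Its log2 ratio of FPKM + 1 was the highest of the 45 genes in that clone, just above that of GINS4, which had the higher percent change, and in the 8p clone the same gene fell from 10.998 to 4.81 and 4.09 FPKM. Each of these ratios for 1p and 12q rests on 1 library per condition and was not tested.

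**Figure D4:**
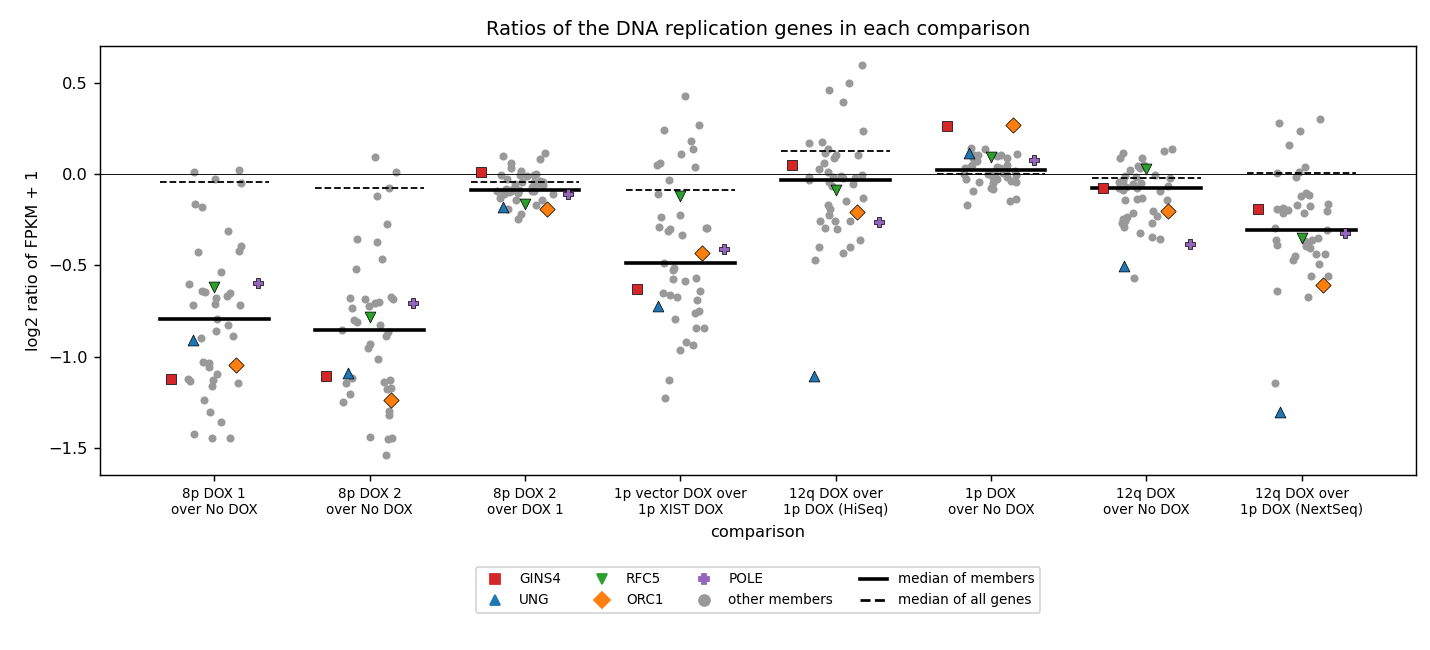
Log2 ratios of FPKM + 1 for the 45 genes (points) in each comparison (horizontal axis), with the median of the 45 genes as a solid bar and that of all genes tested as a dashed bar. Coloured symbols mark GINS4, UNG, RFC5, ORC1 and POLE. The 8p DOX libraries lie near -0.79 and -0.85 against No DOX, the ratio between them lies near 0, and UNG stands below the other genes in both comparisons of the 12q with the 1p clone under DOX.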

How the data were processed

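RNA of 10 libraries was analysed; the 6 ChIP libraries were not analysed here. The libraries were polyA-selected and strand-specific, with paired-end reads. Per the labels, the authors used TopHat and Bowtie for alignment (build hg18) and Cufflinks for the FPKM values, which they deposited as one HiSeq table (6 libraries) and one NextSeq table (4 libraries). Versions and the annotation are not given in the sources used here. FPKM are scaled to library size and gene length and give no read counts, so no interval or floor based on depth was computed.

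Left out were lines of repeated symbols (735 in the HiSeq and 878 in the NextSeq table), 26 symbols per table that had become dates, and 2 NextSeq entries with an empty value. Genes whose mean over a table reached 1 FPKM were tested, 11357 HiSeq and 11397 NextSeq genes. Limma 3.58.1 in R 4.3.3 (lmFit, eBayes with trend) was run on log2(FPKM + 1) across all of them, with Benjamini-Hochberg adjustment and a threshold of 0.05; differences are on that scale, which understates the change of genes with low values. In the HiSeq table each group had its own coefficient for the 8p comparison. In the NextSeq table DOX and clone, entered as the integration site, were fitted together. Where a condition had 1 library and no fit applied, ratios were described by a rule on plain FPKM (lower by at least 20% or higher by at least 25%, in both replicates for 8p). The genes named were those near an integration, the 3 with the largest change in each direction, every gene called where 10 or fewer were, and examples for each role. The 45 genes, the other lists and the tests were chosen with earlier results of these data known. Starts of positions, counted from 0 in the HiSeq table, are given counted from 1. The fits were tested on simulated data with known changes, where they missed part of the changed genes and made more false calls than the threshold allows, so calls near it are less certain. Python 3.11.15, pandas 2.3.3, scipy 1.17.1 and numpy 2.4.6 served for the rest. Alternatives were other pseudocounts, filters, scalings, folds and baselines, and leaving out libraries.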

Additional observations from a re-analysis of the deposited data

Results flagged for a closer look

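For 8 of the 45 genes, both DOX libraries of the 8p clone lay below No DOX while the DOX library lay above No DOX in the 1p clone and in the 12q clone. The same pattern was found for 11.7% of the 10196 genes tested in both tables. These genes were flagged because the clones moved in opposite directions, and the difference itself was not tested, since the clones are in separate tables with 1 library per condition in 1p and 12q. In the 8p clone the changes of the mean were -58.2% for GINS1, -46.8% for MCM6, -33.4% for MCM8, -46.5% for POLA1, -18.3% for PRIM2, -21.8% for RFC1, -40.9% for RFC5 and -57.3% for RRM2. In the 12q clone the same genes were higher by 1.66% (MCM8) to 10.5% (PRIM2), and 0 of these 8 were higher by 25% there or in the 1p clone.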

How the results depend on the processing

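The main limits are the single No DOX libraries, unknown depth, and clones that are each 1 integration. In the 8p clone, the count of genes that fell stayed at 36 to 39 under most alternatives. These were a pseudocount of 0.1, a filter of 5 FPKM, rescaled libraries, no trend, the 8p libraries alone and leaving out any other library. At the filter of 5 FPKM, 36 of the 42 members tested fell, as did 2190 of all 7662 genes tested. The count was 0 without a filter on low values. Rescaling every library to one median changed the calls over all genes from 2251 lower and 1286 higher to 2080 lower and 2169 higher, and 39 members were still lower. Leaving out 1 8p DOX library was not possible in limma, for lack of residual degrees of freedom; the same holds for any library of the NextSeq table. In the 8p against other clones comparison, leaving out 1 library gave 0 to 1 calls: MCM2 (lower) without the 8p No DOX library and ORC3 (higher) without the 12q library; rescaling changed the calls over all genes from 121 lower and 466 higher to 255 lower and 192 higher. In the comparison of the 12q with the 1p clone, 6 genes passed without the filter, where 10.7% of all genes did, against 21. The GINS4 difference from the median of the others was -0.45 with a pseudocount of 0.1, against -0.32, and could not be computed at 5 FPKM, since GINS4 is below it. In 12q, 16 members were lower by at least 13% (24.7% of all genes), 1 by 1.5-fold (4.01%) and 2 by 30% (5.56%), against 6 at 20% (14.3%), and in 1p 2 were higher by at least 15% (8.6%). Baselines chosen after seeing the data (1p XIST, 12q XIST and 1p vector) gave 31, 29 and 18 lower and 2, 0 and 4 higher members for 8p. Of the summary results, 47 values under alternatives kept their side and 5 moved. Pairing by replicate number could not be made, since replicate 1 is the only number that any groups have in common. The clone term of the NextSeq fit for DOX is the integration site. It compares No DOX and DOX within each site, where the libraries may be of different clones.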
